A study of Bos taurus with 18 samples.

Results

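The 50 gene IDs with the highest mean share of counts were examined in RNA sequencing libraries of 18 bovine demi-embryos, out of 24616 IDs in the deposited table. They were chosen by their share of each library's counts, in CPM (10000 CPM are 1% of a library), averaged over the 18 libraries, and by taking the 50 highest after leaving out 5 IDs. The levels themselves therefore chose the members, and their rank and mean level are given as a description only. Each library is 1 part of a bisected Holstein blastocyst from a superovulated heifer, collected by a uterine flush on day 8 per the series design, although the handling protocol speaks of blastocysts from culture. The other part was transferred to a synchronized recipient heifer. The pregnant group (n = 4, numbered 1, 2, 3 and 5) holds embryos whose recipient was pregnant on days 30 and 60, and the not-pregnant group (n = 14) holds embryos whose recipient was not pregnant on day 30. Where a cut was uneven, the smaller or less intact part was sequenced, per the labels' protocols. The labels name no donor, batch or treatment that differs between the groups, and embryos may share a donor, so a p-value here reflects only variation from embryo to embryo.

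A sequencing library divides a limited number of reads among all transcripts, so a few very abundant RNAs lower the share left for every other gene. In mammalian blastocysts, transcripts of the mitochondrial genome and of genes for ribosomal proteins, translation factors and the cytoskeleton are commonly among the most abundant. The deposited table pairs no ID with a gene name, and the RefSeq gene table used here matched 0 of the 24616 IDs. No member is therefore given a name or a role, and the labelled mix of trophectoderm and inner cell mass was not checked against marker genes. Shares are not corrected for transcript length, so their order is not an order of molecule numbers. In such mixed samples, fewer cells of a type and less RNA per cell cannot be told apart.

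Over the 18 libraries the 50 members together took 44.9% ± 6.48 of the counts (SD, n = 18), from 35.9% in not-pregnant 12 to 62.2% in pregnant 3. The top of each library was mostly shared, since 43 to 49 of the 50 members were also among the 50 most abundant IDs of each single library, with the same 5 IDs left out. The smallest count of any member in any library was 388. Each member share had a 95% Wilson interval no wider than 0.0495 points to either side, which covers counting error only. At the lower end of the list, the members in places 48, 49 and 50 had means of 1222, 1220 and 1165 CPM. The IDs in places 51, 52 and 53 followed at 1119.8, 1119.7 and 1063 CPM, so that the end of the list separates nearly equal levels. Of the 5 IDs left out by the rule, ENSBTAG00000026199 was 12th of all IDs, with a mean share of 1.05%. The others were ENSBTAG00000006270 at place 32, ENSBTAG00000014731 at place 137, ENSBTAG00000021111 at place 434 and ENSBTAG00000018854 at place 4759.

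**Figure D1:**
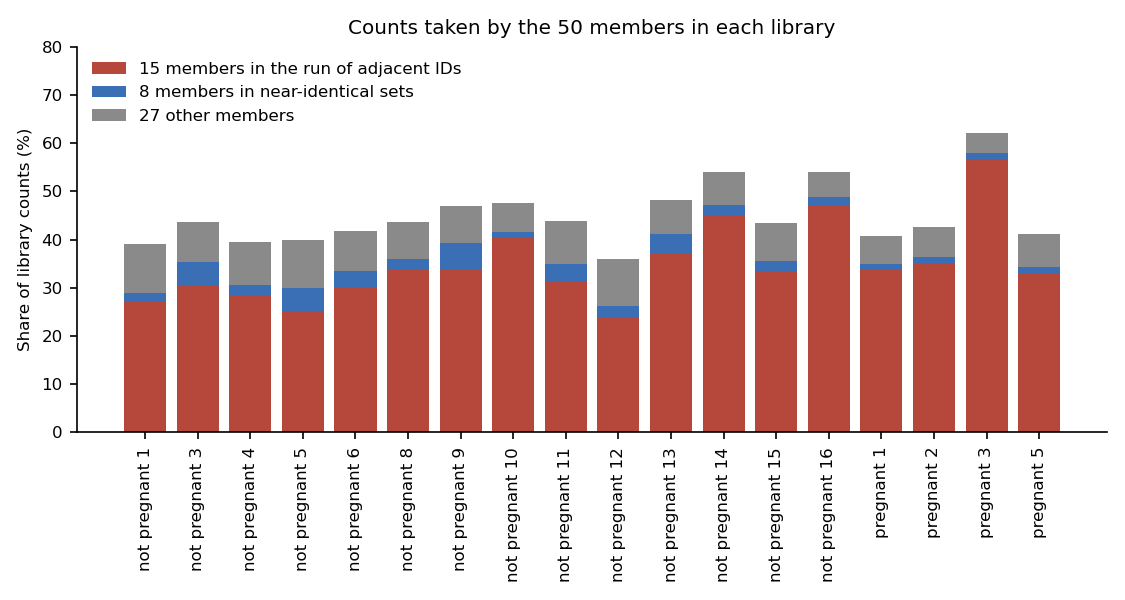
Share of the counts of each library (vertical axis, %) taken by the 50 members, stacked by kind of member, for 14 not-pregnant and 4 pregnant demi-embryos. The red part, the 15 members of the run of adjacent IDs, makes up most of every bar and reaches 56.5% in pregnant 3.

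The members were sorted into 3 kinds after their values were seen. In the deposited table, 15 members lie in 1 unbroken run of 37 adjacent rows, whose ID numbers are all within 50 of that of the most abundant ID. The 15 are the 11 most abundant members and 4 of the next 5. Together they took 34.8% ± 8.17 of the counts (SD, n = 18), or 62.8% to 90.9% of what the 50 members took. The other 22 IDs of the run were hardly counted, with at most 179 CPM each and 0.0477% of the counts in all, against at least 7672 CPM for each of the 15. The run was noticed after its values were seen, so its values are given as a description and support nothing. A further 8 members form 3 sets with near-identical counts, and 27 members belong to neither kind.

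The near-identical sets were formed from pairs of members whose counts had a chi-square per degree of freedom under 1.5. Low values within the sets therefore follow from that limit and are given as a description. ENSBTAG00000047046, ENSBTAG00000046351, ENSBTAG00000047154 and ENSBTAG00000045710 had mean shares of 0.393%, 0.392%, 0.391% and 0.391%. The 6 pairs among them had a chi-square per degree of freedom of 0.994 to 1.18, where 1 is the value that equal proportions with counting noise give. The pair ENSBTAG00000047122 and ENSBTAG00000045518 had a value of 1.01, and the pair ENSBTAG00000047947 and ENSBTAG00000046912 one of 0.461. All 1217 other pairs of members had values of at least 18.7, with a median of 756. No source used here says how reads with several equal hits were counted, so the level of each of these 8 IDs alone is uncertain and the sets are better read as sums. Summed, the set of 4 IDs took 1.57% of the counts on average and would be 10th among all IDs, while the pairs took 0.638% and 0.413%.

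The 15 members of the run were led by ENSBTAG00000043563, with a mean share of 5.44%. It took 5.95%, 5.28%, 8.21% and 5.80% in pregnant 1, 2, 3 and 5, against 3.36% to 7.57% with a median of 4.92% in the not-pregnant group. The second, ENSBTAG00000043561, took 3.61%, 4.41%, 6.77% and 4.10% in the pregnant libraries and 3.38% to 6.92% (median 4.98%) in the not-pregnant ones. In both IDs pregnant 3 was the highest pregnant library, and for ENSBTAG00000043561 it lay within the not-pregnant range. ENSBTAG00000043577 (mean 3.40%), ENSBTAG00000043550 (3.18%) and ENSBTAG00000043571 (2.82%) followed. The least abundant of the 15, ENSBTAG00000043559, still had a mean of 0.767%.

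The run moved largely as a whole. Each of its members differed by 1.94-fold to 3.94-fold between its lowest and its highest library, yet pregnant 3 was the highest library for 12 of the 15 and not-pregnant 12 the lowest for 12. The run as a sum ranged from 24.0% in not-pregnant 12 to 56.5% in pregnant 3. Not-pregnant 16, at 47.0%, and not-pregnant 14, at 45.2%, came next after pregnant 3. These 3 libraries were also the most top-heavy when all 50 members were counted, at 62.2%, 54.1% (not-pregnant 16) and 54.1% (not-pregnant 14).

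Some members of the run changed their part within it. ENSBTAG00000043570 and ENSBTAG00000043567 together made up 8.32% to 18.7% of the run, the highest value being that of not-pregnant 11. Singly, ENSBTAG00000043570 ranged from 5.14% of the run in pregnant 1 to 11.6% in not-pregnant 11, and ENSBTAG00000043567 from 3.18% in pregnant 1 to 7.29% in not-pregnant 5. These were the 2 widest ranges of the 15, at 2.26-fold and 2.29-fold. ENSBTAG00000043561 ranged from 10.6% of the run in pregnant 1 to 20.9% in not-pregnant 12. ENSBTAG00000043560 made up 4.67% ± 0.0372 (SD, n = 4) of the run in the pregnant group, from 4.64% to 4.72%. The not-pregnant mean was 5.43% ± 0.452 (SD, n = 14), from 4.83% to 6.25%, and the groups did not overlap. As a share of all counts, however, the groups overlapped for this ID, at 1.54% to 2.67% in pregnant and 1.38% to 2.46% in not-pregnant libraries. As a part of the run it was the only one of the 15 without overlap. It was picked out after its values were seen, and was not tested. ENSBTAG00000043546, by contrast, ranged only from 3.35% to 4.19% of the run.

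**Figure D2:**
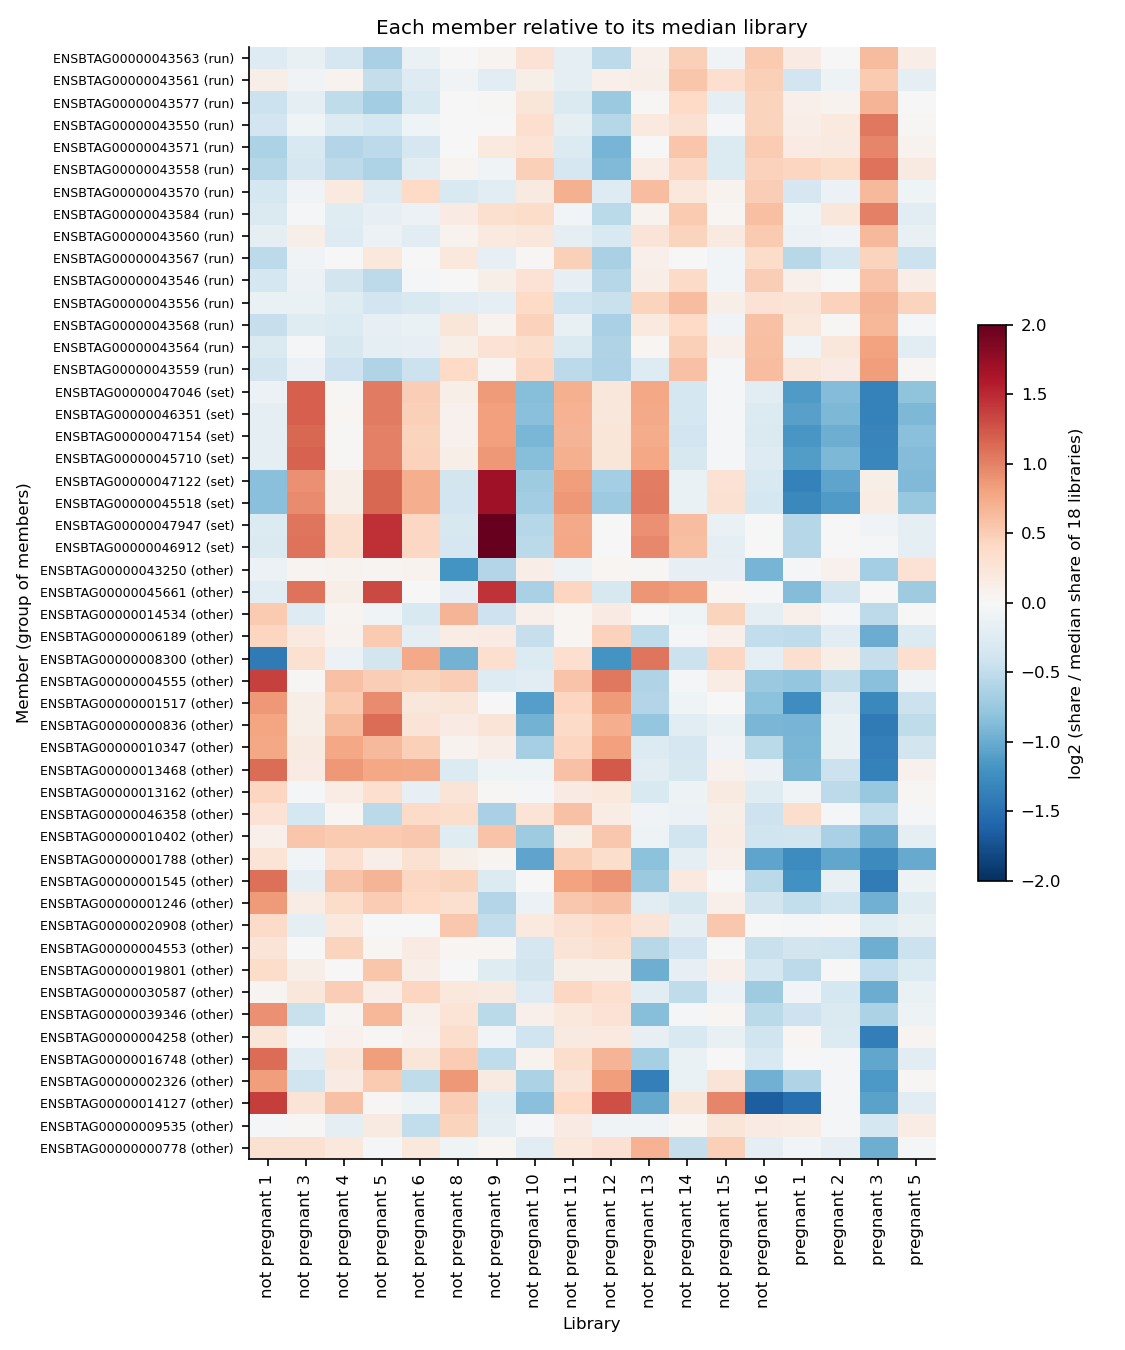
Log2 ratio of each member's share in a library to its median share over the 18 libraries (colour, red above and blue below the median), with members in rows by kind and libraries in columns. The run rows are red in pregnant 3 and in not-pregnant 14 and 16, while the 8 near-identical IDs summed are highest in not-pregnant 3, 5 and 9.

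Pregnant 3 was the most top-heavy library. Its 50 members took 62.2% of the counts (95% Wilson interval 62.1% to 62.2%), against 40.6%, 42.7% and 41.1% in pregnant 1, 2 and 5. The 5 most abundant members alone took 32.2%, against 19.3% to 19.9% in the other 3 pregnant libraries and 13.2% to 26.9% in the not-pregnant group. Only 11 IDs held 50% of its counts, whereas 143 to 190 IDs did so in the other pregnant libraries and 22 to 224 in the not-pregnant group. Its total of 2439701 counts was also above the 854791 to 1095874 of the other 3 pregnant libraries. Whether the total has a part in the composition of pregnant 3 was not tested.

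The members that set this composition were those of the run. For each member, the excess in a library was taken as its share there minus its median share over the other 17 libraries. In pregnant 3 the excesses of the 15 run members were all positive and added up to 23.9 percentage points. Those of the near-identical sets added up to -0.793 points and those of the other 27 members to -3.18 points. The largest excess was that of ENSBTAG00000043550, at 6.23% of the counts against a median of 2.99%, which is 3.24 points and a ratio of 2.08. It took 3.30%, 3.43% and 3.05% in pregnant 1, 2 and 5 and 2.01% to 4.08% in the not-pregnant group, and its next highest library was not-pregnant 16.

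ENSBTAG00000043563 had an excess of 2.93 points, at a ratio of 1.56 to its median. ENSBTAG00000043558 took 4.98% in pregnant 3 against a median of 2.24%, an excess of 2.74 points and, at 2.22, the highest ratio of the 15. ENSBTAG00000043571 had an excess of 2.68 points, ENSBTAG00000043561 of 2.29 and ENSBTAG00000043584 of 2.15. ENSBTAG00000043577, ENSBTAG00000043570, ENSBTAG00000043560 and ENSBTAG00000043546 followed with 2.12, 1.36, 1.04 and 0.627 points. These 10 members made up 88.3% of all positive excess in pregnant 3, and the first 5 made up 57.9%. The smallest ratio in the run was 1.37, for ENSBTAG00000043567. The ratios within the run were therefore not equal. As a part of the run, both ENSBTAG00000043550 and ENSBTAG00000043571 (9.61% for the latter) were higher in pregnant 3 than in any other library, and ENSBTAG00000043546 (3.35%) was lower.

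**Figure D3:**
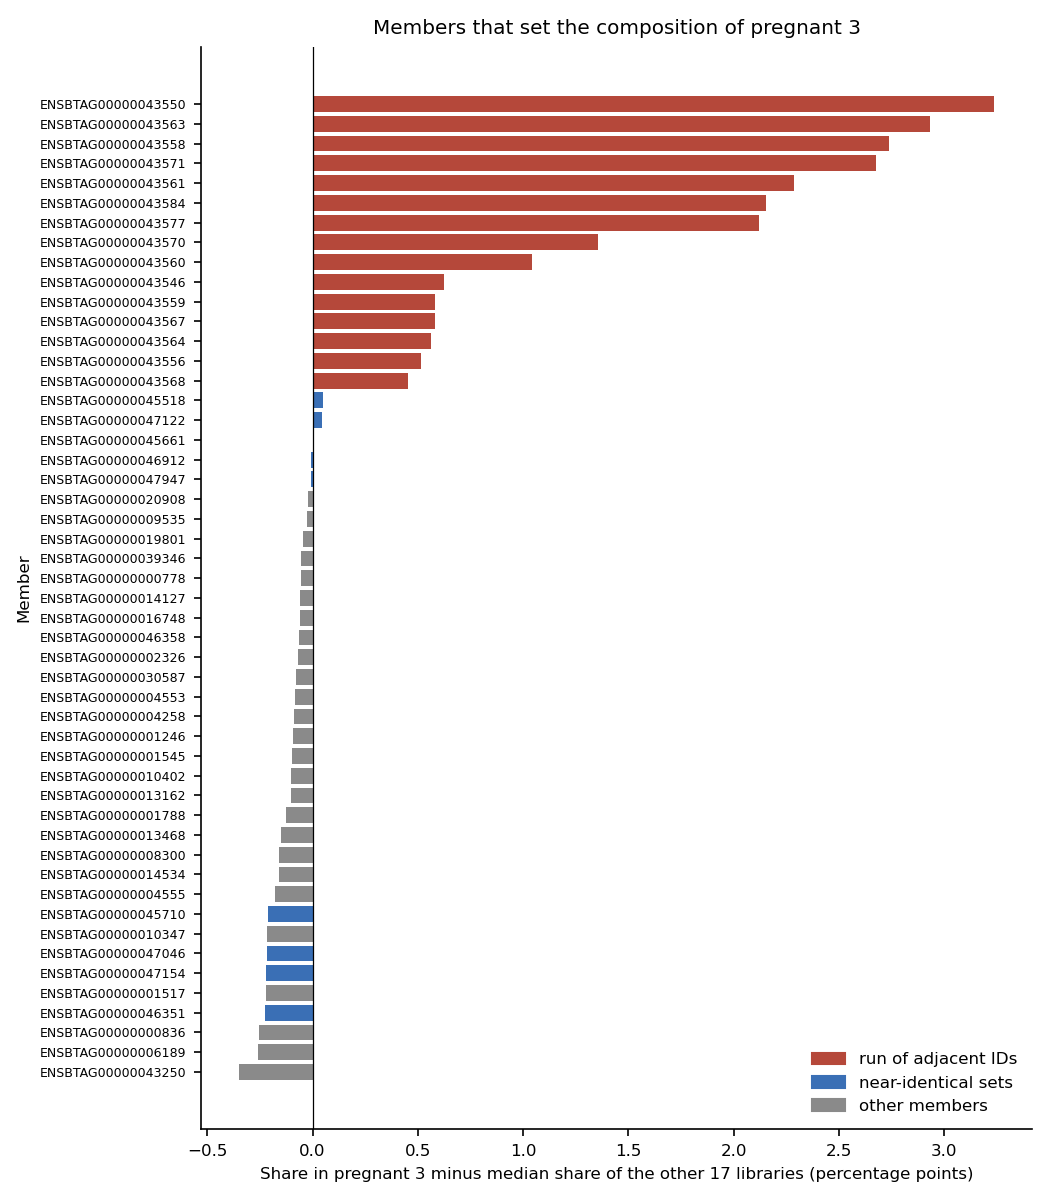
Share of each member in pregnant 3 minus its median share over the other 17 libraries (horizontal axis, percentage points), sorted by size. All 15 run members (red) lie above 0, up to 3.24 points, and the 35 other members lie between -0.350 and 0.0499 points.

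Outside the run, 32 of the 35 members had a lower share of the counts in pregnant 3 than in the median of the other libraries, and 21 of them had their lowest share of all there. The median ratio was 0.489. The largest shortfall was that of ENSBTAG00000043250, the most abundant member outside the run, at 0.558% against a median of 0.908%. When shares were taken of the counts outside the run instead, only 2 of the 35 had their lowest value in pregnant 3, the median ratio was 0.776, and 11 ratios were above 1. On that scale, pregnant 1 was the lowest library for 18 of the 35. Against the mean of pregnant 1, 2 and 5 on that scale, the median ratio of the 35 in pregnant 3 was 1.01. The pair ENSBTAG00000047122 and ENSBTAG00000045518 stood apart. Summed, it took 0.572% of all counts in pregnant 3, against 0.210%, 0.244% and 0.296% in pregnant 1, 2 and 5.

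The other top-heavy libraries had the run in common with pregnant 3, with different leading members. In not-pregnant 16 the run members had a summed excess of 14.3 points, led by ENSBTAG00000043563 (2.29 points). In not-pregnant 14 the sum was 12.5 points, led by ENSBTAG00000043561 (2.44 points). In not-pregnant 10 it was 7.73 points, again led by ENSBTAG00000043563 (1.16 points), and in not-pregnant 13 it was 4.43 points, led by ENSBTAG00000043570 (1.29 points). All 15 run members were in excess in not-pregnant 10, 14 and 16. In not-pregnant 6 and 11 the largest excess was also that of ENSBTAG00000043570, although the run as a whole was below its median there, by 3.73 and 2.75 points.

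In 5 not-pregnant libraries the largest excess was that of a member outside the run. In not-pregnant 3, 5 and 9 the leading excess was that of ENSBTAG00000045661, at 0.623, 0.829 and 0.957 points. The same 3 libraries had the highest near-identical sums, at 4.81%, 4.81% and 5.45% of the counts, against 1.29% to 4.01% in the other not-pregnant libraries. In not-pregnant 9, where the run had a summed excess of only 0.136 points, the near-identical sets contributed 3.30 points. In not-pregnant 1 ENSBTAG00000004555 led with 0.632 points, and in not-pregnant 8 ENSBTAG00000014534 led with 0.318 points. In not-pregnant 4, 12 and 15 ENSBTAG00000043561 led with 0.453, 0.548 and 1.44 points. The run as a whole had a summed excess of -5.30, -9.69 and 0.249 points in these libraries. Pregnant 1 and 2 were led by ENSBTAG00000043558 (0.900 and 0.773 points) and pregnant 5 by ENSBTAG00000043563 (0.516 points).

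The members also differed in how steady they were. ENSBTAG00000009535 varied least, with an SD of log2 CPM of 0.22 over the 18 libraries, followed by ENSBTAG00000043560 and ENSBTAG00000020908 (both 0.29) and ENSBTAG00000013162 (0.30). ENSBTAG00000014127 varied most, with an SD of 0.89 and shares from 0.0342% in not-pregnant 16 to 0.281% in not-pregnant 1. ENSBTAG00000047122 and ENSBTAG00000045518 (both 0.88) and ENSBTAG00000047154 (0.77) came next. By kind, the median SD was 0.36 in the run, 0.49 in the 27 other members and 0.77 in the near-identical sets.

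Between the groups, the run overlapped widely, and the members outside it took a smaller mean share in the pregnant libraries. The run took 33.9%, 35.0%, 56.5% and 33.1% of the counts in pregnant 1, 2, 3 and 5, and 24.0% to 47.0% (median 32.2%) in the not-pregnant group. Without pregnant 3 the pregnant mean fell from 39.6% to 34.0%, next to 33.4% ± 6.96 (SD, n = 14) in the not-pregnant group. The 35 members outside the run took 6.73%, 7.67%, 5.66% and 8.02% in the pregnant libraries and 7.12% to 14.9% (median 11.4%) in the not-pregnant ones. Of the counts outside the run they took 10.2%, 11.8%, 13.1% and 12.0%, against 12.3% to 20.0% (median 16.3%), so on this scale pregnant 3 was the highest pregnant library and only not-pregnant 10 lay below it. The difference in the share of all 50 members was 2.25 points (46.7% ± 10.4, SD, n = 4, against 44.4% ± 5.37, SD, n = 14). It was -2.93 points without pregnant 3 and -4.72 points when the run was left out of the members and the totals.

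The number of IDs holding 50% of the counts uses each library's own ranking. Its mean was 131 ± 82.7 for pregnant (SD, n = 4) and 104 ± 56.7 for not pregnant (SD, n = 14). The difference of 26.8 IDs did not pass (exact two-sided permutation p = 0.459 over the 3060 choices of 4 of 18 embryos). Among the counts outside the run, 764 to 1051 IDs held 50% in the pregnant group and 430 to 765 in the not-pregnant group, with pregnant 3 at 764 and not-pregnant 10 at 765.

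**Figure D4:**
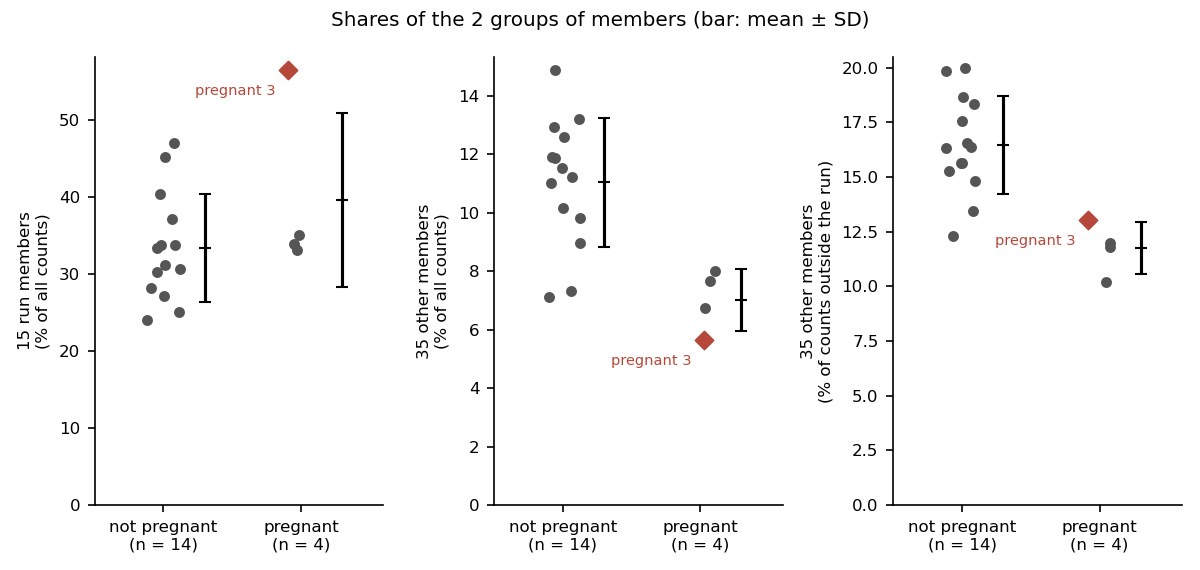
Shares of counts (vertical axes, %) for the 15 run members and the 35 other members, with 1 point per demi-embryo, pregnant 3 as a red diamond, and the mean ± SD of each group beside the points. Pregnant 3 is the highest of all libraries for the run (56.5%), the lowest for the other members (5.66%), and above the other 3 pregnant libraries when the run is left out of the total (13.1%).

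All 50 members passed the filter on low counts and entered the test across 13060 IDs. The quasi-likelihood test of edgeR with TMM scaling called 8 of the 50 lower in the pregnant group and 0 higher, at an adjusted p under 0.05. Over all tested IDs 0.429% were called lower and 0.345% higher. The mean that chose the members weighs 14 not-pregnant against 4 pregnant libraries, so it favours IDs high in the not-pregnant group. For 9 members, 1 of the 8 among them, the pregnant mean was below 0.116%, the share of the last member, and for 0 members the not-pregnant mean was. With both groups weighted equally, a ranking chosen after seeing the data, 49 of the 50 IDs were shared and again 8 were called lower. Because the choice used these levels, the 8 describe the list and are no independent evidence of a direction. They hold 5 separate count profiles, since 4 of them are the set of 4 near-identical IDs, and none belongs to the run. At an unadjusted p under 0.05, 22 members were lower (8 of them with a pregnant mean below that share) and 1 was higher, where 7.29% of all tested IDs were lower and 9.46% higher. Other abundant IDs leaned the same way. Among the 450 other IDs in the 500 most abundant, 4.67% were called lower and 196 were lower at an unadjusted p under 0.05. A log2 fold change below 0 was found for 413 of them, against 5715 of the 13060 tested IDs. These 450 come from the same ranking, which favours IDs high in the not-pregnant group, so they are no independent comparison. The median log2 fold change was -0.48 over the 50 members, -0.34 over those 450 IDs and 0.10 over all tested IDs.

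All 4 IDs of the largest near-identical set were called lower. Its ID furthest down, ENSBTAG00000046351, took 0.166%, 0.189%, 0.138% and 0.189% of the counts in pregnant 1, 2, 3 and 5. In the not-pregnant group it took 0.197% to 0.809%, with a median of 0.394%, so all 4 pregnant libraries lay below all 14 others. Its log2 fold change was -1.46 (SE 0.29, adjusted p = 0.0207 in edgeR). Summed over the set, the 4 pregnant libraries held 0.559% to 0.780% and the 14 others 0.775% to 3.20%, where pregnant 5 lay just above not-pregnant 10.

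The other called ID given singly was ENSBTAG00000001788, 1 of 4 called members outside the run and the sets. With a pregnant mean of 0.0935% it was in the list only through the not-pregnant group, at 0.206%, so its lower level is given as a description. It took 0.0858%, 0.101%, 0.0851% and 0.102% in pregnant 1, 2, 3 and 5, against 0.0988% to 0.288% (median 0.222%) in the not-pregnant group. The groups overlapped only through not-pregnant 10 and 16. The edgeR estimate of its log2 fold change, -1.15, belongs to that description. No p-value is printed for it, because its place in the list came from its not-pregnant level. The call of ENSBTAG00000046351 was lost in edgeR without pregnant 1 (adjusted p = 0.0986), 2 (0.0635), 3 (0.0504) or 5 (0.0713). It was also lost in edgeR with log2 total counts as a covariate (adjusted p = 0.616). Of these fits, ENSBTAG00000001788 was called only in the one without pregnant 3, which is again a description.

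Fold changes were mostly above 0 in the run and mostly below 0 in both other kinds. In the run, 12 of the 15 log2 fold changes were above 0, with a median of 0.30 and a range from -0.11 to 0.70, and the lowest adjusted p was 0.212 in edgeR. Without pregnant 3 only 2 of the 15 were above 0 and the median was -0.25. All 8 near-identical IDs, which hold only 3 count profiles, were below 0, with a median of -1.24. So were 26 of the 27 other members, with a median of -0.58. Of all 13060 tested IDs, 7345 were above 0 and 5715 below. Outside the run the median was -0.76, and without pregnant 3 it was -0.89. In 4 of the 50 members, all 4 pregnant log2 CPM values after TMM scaling lay below all 14 not-pregnant values. Of all tested IDs 0.375% did so. The 4 include 2 near-identical IDs. As shares of all counts, ENSBTAG00000047046 overlapped (pregnant up to 0.200%, not-pregnant from 0.194%). So did ENSBTAG00000004553 (0.134%, 0.117%) and ENSBTAG00000000778 (0.108%, 0.0808%). Of the 4, ENSBTAG00000000778, at place 50, had a pregnant mean of 0.0925%. This is again below the share of the last member, so nothing is read from this count. In 0 members all 4 pregnant log2 CPM values lay above all 14 others, against 1.21% of all tested IDs.

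The number of lower members depended on single libraries and on the fit, and so did the share called over all tested IDs. Without pregnant 1 it was 0 members (0.0% of all tested IDs), without pregnant 2 it was 0 (0.065%), without pregnant 3 it was 1 (0.0144%) and without pregnant 5 it was 1 (0.0863%). At an unadjusted p under 0.05, 20 to 32 members were lower in these 4 edgeR fits. The share of all tested IDs at that limit was not taken in these fits, so nothing is read from these counts. Without not-pregnant 10 the number called was 17 (2.09%), without not-pregnant 13 it was 14 (0.844%) and without not-pregnant 16 it was 16 (2.06%).

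With log2 total counts as a covariate in edgeR, 0 members were called (0.00766% of all tested IDs). At an unadjusted p under 0.05, 13 were lower in that fit, again without a share of all tested IDs. The totals of pregnant 1, 2 and 5 (854791 to 1095874 counts) lay below all not-pregnant totals (1611847 to 4689576). Of the pregnant libraries only pregnant 3, at 2439701, lay among the latter. Total and group can therefore hardly be told apart in these libraries. With no scaling beyond the library total, and with no robust fit, 5 members were called (0.0613% and 0.299%). DESeq2 called 15 (1.43%), limma voom 18 (1.17%), edgeR with not-pregnant 15 as the TMM reference 15 (1.45%), and edgeR without the filter 17 (1.49%). With the run left out of the counts before scaling, 17 of the 35 members outside it were called (1.8%). With each near-identical set summed to 1 row, 12 of 45 rows were called (1.33%).

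**Figure D5:**
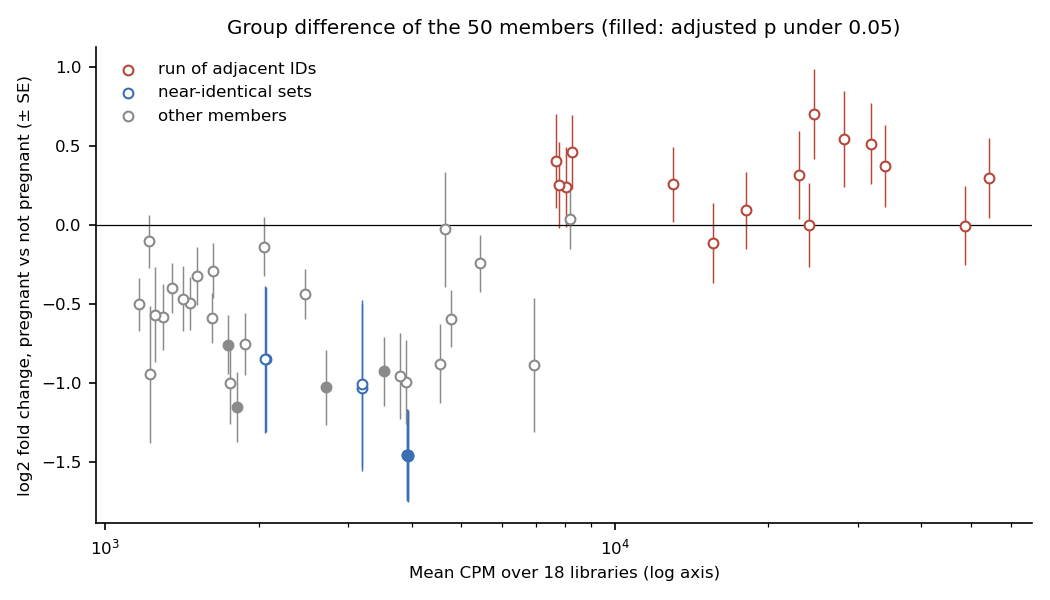
Log2 fold change of each member between the groups (vertical axis, with SE) against its mean CPM (horizontal log axis), with 1 point per member and filled points for an adjusted p under 0.05. The run members (red) lie between -0.11 and 0.70, and the 8 filled points lie below 0, down to -1.46.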

How the data were processed

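RNA of 18 demi-embryos was sequenced with single-end reads after low-input library making with depletion of unwanted transcripts, per the labels' protocols. The authors deposited 1 table of raw whole-number counts for each Ensembl gene ID. The submitters' processing notes name UMD3.1, bosTau8 and edgeR with no role. The sources used here do not give aligner, counter or strand setting. Library totals ran from 854791 to 4689576 counts. Members and lists were chosen with earlier results of these data known.

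Shares are counts over the library total. Groups were compared with edgeR 4.0.16 (R 4.3.3), using filterByExpr on the groups, TMM scaling, robust glmQLFit and glmQLFTest, and Benjamini-Hochberg adjustment over all tested IDs. SEs are implied by the F statistic. The script was tested on simulated data. Single library values were compared by exact permutation in Python 3.11.15. Without names, the gene lists and marker lists were not used, and only 2 fallen IDs are given singly. The other named IDs are the members highest in mean, in excess, and in largest and smallest SD. Alternatives were other scalings, DESeq2 1.42.0, limma 3.58.1 voom, no filter, no robust fit, a covariate, a block and 2 libraries summed. Further ones were other rankings and denominators, thinning to the smallest total, and leaving out each library. The run left out, the sets summed and the ranking with equal group weights were chosen after seeing the data.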

Additional observations from a re-analysis of the deposited data

Results flagged for a closer look

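In the 4 pregnant libraries, 60 values were examined for a library separated from the other 3 by a gap over 0.829 of the group's range: 10 library measures and the share of each of the 50 members. Chance gives such a gap in about 1 of 20 groups, but that rate cannot be applied here: pregnant 3 was already known to be top-heavy on these shares, the run was defined after its values were seen, and shares of a library add up. The 9 values past the limit, all of pregnant 3, are therefore a description. Of the library measures these were the total, at 2439701 counts (others 854791 to 1095874), the share of the 50 members, at 62.2% (others 40.6% to 42.7%), and the share of the 15 run members, at 56.5% (others 33.1% to 35.0%). In the run, ENSBTAG00000043577 took 5.55% (others 3.43% to 3.72%), ENSBTAG00000043550 6.23% (others 3.05% to 3.43%) and ENSBTAG00000043571 5.43% (others 2.90% to 3.15%). ENSBTAG00000043560 took 2.67% (others 1.54% to 1.63%) and ENSBTAG00000043567 2.15% (others 1.08% to 1.23%). Outside the run, ENSBTAG00000004553 was low, at 0.0879% (others 0.128% to 0.134%). No other share of the 50 members, and no other of the 10 measures, passed that limit.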

How the results depend on the processing

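The share of the 50 members, pregnant minus not pregnant, was 2.25 points and stayed at 2.03 to 3.53 points with other rankings and denominators. Leaving out single libraries gave -2.93 to 4.25 points, the lowest value being without pregnant 3, and leaving out the run gave -4.72. The difference of 26.8 in the number of IDs holding 50% of the counts was 7.24 to 66.9 with single libraries left out (exact permutation p from 0.0676 to 0.862). For 25% of the counts it was -2.04 (exact permutation p = 0.208), and with the run left out 365. With every library thinned to the smallest total it was 26.9 (exact permutation p = 0.455). The cause of these differences was not tested. The 8 lower members (0.429% of all tested IDs called lower) became 5 with no scaling beyond the total (0.0613%) and 5 with no robust fit (0.299%). With not-pregnant 15 as TMM reference the number was 15 (1.45%), with DESeq2 15 (1.43%), with limma voom 18 (1.17%) and with no filter 17 (1.49%). It was 0 with log2 total counts as covariate (0.00766%) and 17 with the run left out (1.8%). Leaving out single libraries gave 0 (0.0% without pregnant 1) to 17 (2.09% without not-pregnant 10). The share over all tested IDs thus moved as well. The number of lower members was again 8 with members ranked by the mean of the group means. All 8 were below 0 under each alternative that tested them. They were chosen for being below 0 in these same libraries, so this is no check of their direction. No member was called higher under any alternative run, in edgeR, DESeq2 or limma. The median over all tested IDs moved by -0.10 with the run left out and without not-pregnant 12. ENSBTAG00000046351 ranged from -1.73 to -1.14 and ENSBTAG00000001788 from -1.41 to -0.73. The numbers in the titles were not taken as a pairing. The 3 that both groups share had correlations of deviations of -0.04, 0.07 and -0.03. Unmatched numbers were not compared, so these correlations cannot settle whether embryos share a donor. The replicate block on the title numbers gave 14 lower members (1.9% of all tested IDs) and is no check.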
